A study of Mus musculus with 17 samples.

Results

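Tuft cells are rare chemosensory cells of the gut epithelium, and 10 genes known from these cells were followed across 17 arrays of mouse colon RNA. The genes were Sh2d7 and 9 companions, namely Dclk1, Trpm5, Pou2f3, Il25, Gfi1b, Avil, Alox5, Hpgds and Sh2d6, out of 37325 gene or transcript names on the array. Sh2d7 was picked because of its signal in the WT PCN arrays, and the companions were picked as known tuft genes to see whether they moved with it. Each gene was read by the probe with the highest mean in the deposited log2 table, except Il25, whose only probe was not in that table. A filter kept probes that the scanner software flagged as well above background on 4 or more arrays. It left 25029 names to test, including all 10 genes, although Il25 and Pou2f3 passed on 5 and 6 arrays only.

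The mice were C57BL/6J males, either wild-type (WT) or with a deletion of the pregnane X receptor gene (Pxr-/-). PCN (pregnenolone 16α-carbonitrile), a ligand of the rodent receptor, was given as daily intraperitoneal injections of 100 mg/kg over 4 days, and CONT mice had the corn oil vehicle. Tissue was taken 6 h after the last injection, at ZT6. Of the 6 mice allocated to a group, 5 have an array in Pxr-/- CONT (n = 5), and 4 have one in WT CONT, in WT PCN and in Pxr-/- PCN (n = 4 for each). The WT mice were bought when 6 weeks old and acclimatized for 2 weeks, whereas the Pxr-/- mice, backcrossed to the same strain, came from an in-house colony and their age is not given in the sources used here. Genotype and origin of the mice therefore cannot be told apart. The colon was used whole as a tissue, so for every gene below fewer cells of a type and less RNA per cell cannot be told apart.

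In the intestine, tuft cells depend on the POU-domain factor Pou2f3 and also carry the zinc finger repressor Gfi1b. They sense luminal metabolites through receptors that open the calcium-activated cation channel Trpm5. Upon activation they release the cytokine Il25, which acts on group 2 innate lymphoid cells, and lipid mediators made by Alox5, the 5-lipoxygenase of leukotriene synthesis, and Hpgds, the haematopoietic prostaglandin D synthase. Dclk1, a microtubule-associated kinase, and Avil (advillin), an actin-binding protein, are used to stain them. Sh2d6 and Sh2d7 code for SH2-domain adaptor proteins found in tuft cell profiles.

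Sh2d7 has 1 probe on the array. It is shown because every Sh2d7 value below rests on it. It lies on the plus strand of chromosome 9 in the array's own annotation (build mm9, chr9:54391402-54391461) and is assigned to the transcript NM_173778. The capitals mark the TGA triplet that ends the longest open frame of the probe, 14 codons that begin at base 3, with 13 bases after it. Whether this is the annotated stop codon was not examined, since no genome of that build was at hand.
Sh2d7 probe: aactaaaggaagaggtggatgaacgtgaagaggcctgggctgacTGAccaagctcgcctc

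The signal is given throughout as quantile-normalized log2 of the spot's median brightness, with no background subtraction, so that differences of dim probes are compressed. Each array had from 61% to 69.7% of its probes well above background, and no spot was saturated. Negative control spots had median log2 signals of 4.61 to 4.81. Signals of different probes are not compared with each other. The targeted gene, Nr1i2, was read at 11.97 to 12.31 in WT CONT, 11.10 to 12.44 in WT PCN, 10.39 to 11.61 in Pxr-/- CONT and 10.95 to 11.93 in Pxr-/- PCN, so that both CONT groups were apart and both PCN groups overlapped. Within WT PCN, Nr1i2 was at 12.44 and 11.85 in replicates 1 and 2. It was at 11.10 and 11.15 in replicates 3 and 4, the lowest of all WT arrays and within the range of Pxr-/- CONT. The reason was not tested. The position of the Nr1i2 probe relative to the deletion was not known.

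Arrays labelled as different groups were nearly the same in 2 cases. The SD of the log2 difference over 38646 probes was 0.172 between WT PCN replicate 4 and the array of Pxr-/- PCN replicate 2. It was 0.198 between WT PCN replicate 3 and the array of Pxr-/- CONT replicate 2. The next closest of the 136 pairs of arrays had an SD of 0.297. No label was changed, and results are given over all 17 arrays and over the 13 arrays outside these pairs. Of WT PCN, the 13 arrays keep replicates 1 and 2 alone. Within the pairs the 10 tuft genes differed by 0.02 to 0.41 in the first and by 0.02 to 0.25 in the second.

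Sh2d7 was high in only 2 of the 17 arrays, both labelled WT PCN. The log2 signal was 8.07 and 8.46 in WT PCN replicates 1 and 2, and 6.59 and 6.97 in replicates 3 and 4, which are the WT PCN arrays with a near-identical partner among the Pxr-/- arrays. In WT CONT the 4 values were 6.45, 6.43, 6.47 and 6.55. The lower of the high arrays stood 1.1 above the next array, and the mean of the high arrays was 3.41-fold that of the other 15. All 4 WT PCN arrays lay above all 4 WT CONT arrays, replicate 3 by the smallest margin.

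In the Pxr-/- arrays Sh2d7 lay between 6.14 and 6.71, a wider range than in WT CONT. Pxr-/- CONT mice had log2 signals of 6.23, 6.71, 6.56, 6.48 and 6.57, and Pxr-/- PCN mice of 6.14, 6.56, 6.30 and 6.42. These groups overlapped with each other and with WT CONT. The spot was well above the background on all 17 arrays, at raw median signals of 64 to 121 on 15 arrays and of 309.5 and 370 on the high ones, against a median background of 20 to 28. With the scanner's background-corrected signal, log2 relative to the 75th percentile of the array, the high arrays were at -1.90 and -1.49, the other WT PCN arrays at -3.74 and -3.28 and WT CONT at -4.12 to -3.88.

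The fitted difference of WT PCN from WT CONT was 1.07 ± 0.30 (log2, standard error) for Sh2d7 over 17 arrays and 1.79 ± 0.13 over 13 arrays. The 13 arrays keep only replicates 1 and 2 of WT PCN, those with high Sh2d7. The smaller standard error is therefore no gain in precision. Because Sh2d7 was chosen for this contrast, these are descriptions without a test. Over 17 arrays 0% of the 38703 probes were called for PCN in WT mice, where a call needed an FDR up to 0.05 and a change beyond 1.5-fold, and 0 of the 10 tuft genes were (4.66% of probes had an unadjusted p under 0.05). Over 13 arrays 0.0491% were called, and Sh2d7 was the 1 tuft gene among them, a count from which nothing is read since the contrast chose the gene. Within the wash baths the Sh2d7 difference was 0.90 in bath 1 (3 PCN against 2 CONT arrays) and 1.56 in bath 2 (1 PCN against 2 CONT arrays).

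Macrophage markers were also high in the arrays with high Sh2d7. The mean log2 signal of 8 macrophage genes (8 of 8 tested) was 11.93 and 11.82 in WT PCN replicates 1 and 2, the highest of the series, and 11.01 and 11.12 in replicates 3 and 4. It ranged from 11.07 to 11.73 in WT CONT, 10.80 to 11.19 in Pxr-/- CONT and 11.11 to 11.43 in Pxr-/- PCN, and its r with Sh2d7 was 0.631 over 17 arrays and -0.305 without the high arrays. Other lists did not all follow. The mean of 6 B cell genes was 9.10 in WT PCN replicate 1 and 6.73 in replicate 2, the latter the lowest of the series. The part of these cells in the result was not tested.

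Liver and pancreas transcripts were high on some of the arrays. The mean of 6 liver genes (6 of 8 tested) was 9.77 and 9.45 in WT PCN replicates 1 and 2 and 7.28 and 7.48 in replicates 3 and 4. It ranged from 7.40 to 12.16 in WT CONT, 6.92 to 7.78 in Pxr-/- CONT and 6.76 to 7.86 in Pxr-/- PCN. Its highest value, 12.16, was in WT CONT replicate 5, where Sh2d7 was at 6.55, and the other WT CONT arrays were at 7.40 to 7.90. The liver genes were thus high in both arrays with high Sh2d7 and in 1 WT CONT array without it. The mean of 8 pancreas genes was 17.71 in WT CONT replicate 4, 11.06 in WT PCN replicate 1, 15.65 in WT PCN replicate 3 and 15.62 in Pxr-/- CONT replicate 2, and 5.55 to 5.86 on the other 13 arrays. Sh2d7 was at 8.46 in WT PCN replicate 2, where the pancreas genes were at 5.58. The part of liver or pancreas transcripts in the Sh2d7 signal was not tested. The colonocyte list (8 of 8 tested) was at 14.61 to 15.30 on every array.

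**Figure D1:**
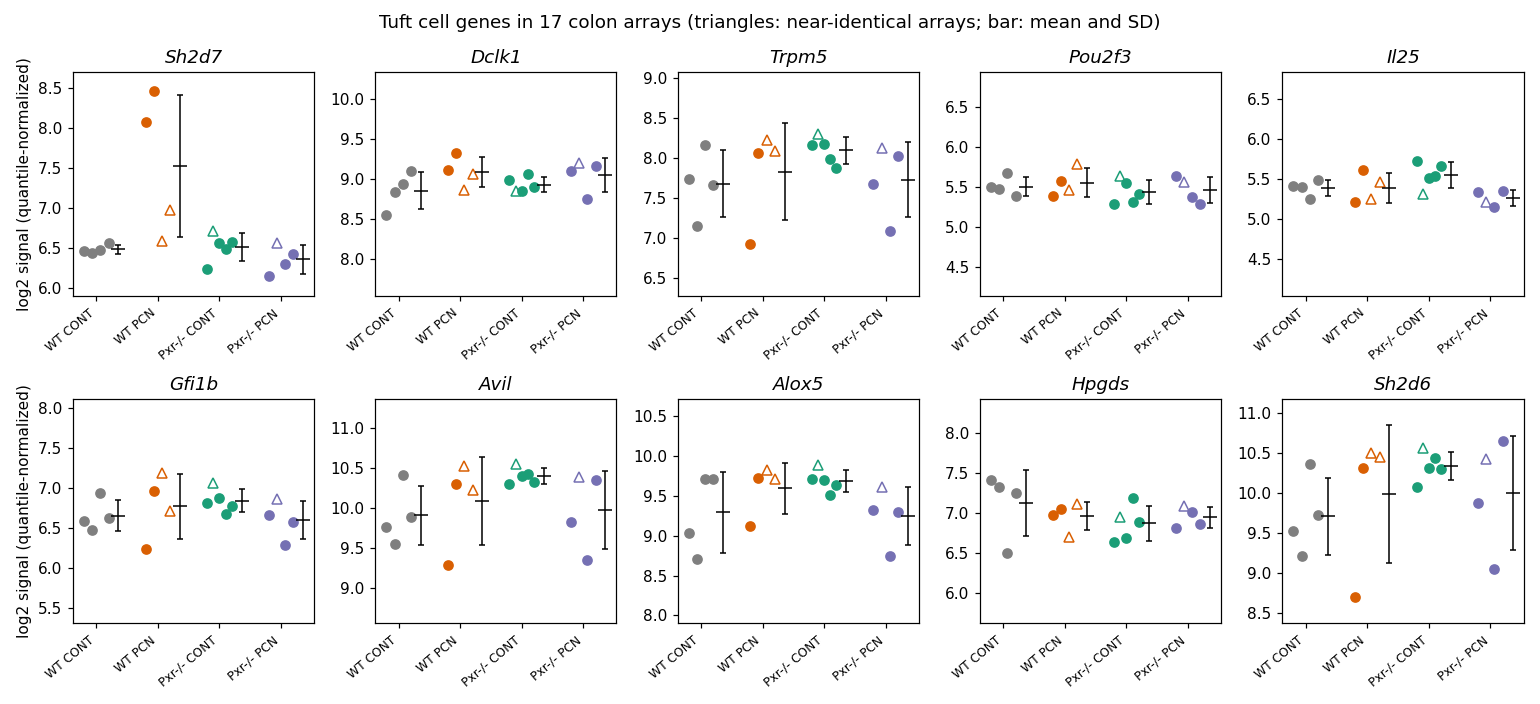
The log2 signal (y axis, quantile-normalized, each panel spanning the same number of units) of the 10 tuft genes is plotted for each array by group, with open triangles for the 4 near-identical arrays and a bar for the group mean and SD. Sh2d7 stands at 8.07 and 8.46 in WT PCN replicates 1 and 2, while in the companions the 4 groups overlap.

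Most companions were not high in both of these arrays. The 5 genes Trpm5, Avil, Sh2d6, Gfi1b and Alox5 were lower in WT PCN replicate 1 than in replicate 2, by 1.14, 1.02, 1.62, 0.72 and 0.59 on the log2 scale, whereas Sh2d7 was high in both. Of these 5 genes, 4 had their lowest signal of all 17 arrays in WT PCN replicate 1, and Alox5 had it among the 4 lowest. In WT PCN replicate 2 the same 5 genes ranked 9th to 15th from the lowest.

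Among the detection genes, the channel Trpm5 had log2 signals of 7.73, 7.16, 8.17 and 7.66 in WT CONT and of 6.92, 8.06, 8.23 and 8.09 in WT PCN. The WT PCN arrays thus held the lowest value of the series beside values close to its top. In Pxr-/- CONT Trpm5 was tight at 8.17, 8.30, 8.17, 7.98 and 7.88, and in Pxr-/- PCN it spread again, at 7.67, 8.12, 7.09 and 8.02. Neighbouring groups overlapped in each case.

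The adaptor Sh2d6 showed the same picture with a wider range. Its log2 signals were 9.53, 9.21, 10.35 and 9.72 in WT CONT and 8.69, 10.31, 10.49 and 10.44 in WT PCN. In Pxr-/- CONT they were 10.07, 10.55, 10.31, 10.43 and 10.30, and in Pxr-/- PCN 9.86, 10.42, 9.04 and 10.64. The highest and the second lowest Sh2d6 values of the series both came from Pxr-/- PCN mice.

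The actin-binding protein Avil had log2 signals of 9.77, 9.55, 10.41 and 9.89 in WT CONT and of 9.29, 10.30, 10.52 and 10.23 in WT PCN. Pxr-/- CONT arrays were at 10.29, 10.55, 10.40, 10.42 and 10.32, above 3 of the 4 WT CONT arrays. Pxr-/- PCN arrays were at 9.83, 10.38, 9.35 and 10.35.

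Of the enzymes, Alox5 had log2 signals of 9.03, 8.71, 9.71 and 9.71 in WT CONT, 9.12, 9.71, 9.82 and 9.70 in WT PCN, 9.71, 9.88, 9.70, 9.50 and 9.63 in Pxr-/- CONT, and 9.32, 9.61, 8.75 and 9.29 in Pxr-/- PCN. Hpgds ran in another order, with 7.42, 7.33, 6.51 and 7.25 in WT CONT, 6.98, 7.06, 6.71 and 7.12 in WT PCN, 6.65, 6.96, 6.70, 7.19 and 6.89 in Pxr-/- CONT, and 6.82, 7.09, 7.02 and 6.87 in Pxr-/- PCN. WT CONT replicate 4, the array of that group with the highest Trpm5, Avil and Sh2d6, had the lowest Hpgds of all 17.

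Of the transcription factors, Gfi1b had log2 signals of 6.59, 6.47, 6.93 and 6.62 in WT CONT, 6.23, 6.95, 7.18 and 6.71 in WT PCN, 6.81, 7.06, 6.88, 6.67 and 6.77 in Pxr-/- CONT, and 6.66, 6.86, 6.29 and 6.57 in Pxr-/- PCN. Its lowest and highest values both fell in WT PCN. The signal of Pou2f3 was barely above the background. Its probe was well above the background on 6 of 17 arrays (1 WT CONT, 3 WT PCN, 0 Pxr-/- CONT and 2 Pxr-/- PCN), with log2 signals of 5.28 to 5.79, and the second Pou2f3 probe was not well above it on any array.

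Il25 was equally dim. It was well above the background on 5 of 17 arrays, 1 from WT CONT, 2 from WT PCN, 2 from Pxr-/- CONT and 0 from Pxr-/- PCN. Its log2 signals were 5.25 to 5.50 in WT CONT, 5.22 to 5.62 in WT PCN, 5.32 to 5.73 in Pxr-/- CONT and 5.16 to 5.35 in Pxr-/- PCN. The 2 WT PCN arrays with high Sh2d7 read 5.22 and 5.62 for Il25, the lowest and the highest of the group.

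For Dclk1 the answer depended on the probe. The probe chosen by the rule, annotated to NM_001111053, gave log2 signals of 8.55, 8.83, 8.94 and 9.09 in WT CONT, 9.10, 9.32, 8.86 and 9.06 in WT PCN, 8.98, 8.84, 8.85, 9.05 and 8.90 in Pxr-/- CONT, and 9.09, 9.19, 8.74 and 9.16 in Pxr-/- PCN. WT PCN replicate 2 was the highest array of the series here too, and replicate 1 was among the 4 highest. A second probe, annotated to NM_019978 and about as bright, gave 8.74, 8.32, 9.34 and 8.81 in WT CONT, 8.42, 8.89, 9.13 and 8.87 in WT PCN, 9.32, 9.22, 9.01, 8.95 and 9.31 in Pxr-/- CONT, and 8.76, 8.91, 8.44 and 8.84 in Pxr-/- PCN. With this probe WT PCN replicate 1 was the second lowest array. The probes lie at chr3:55275120-55275179 and chr3:55342815-55342874 of mm9, both on the plus strand, and their signals had a Pearson r of 0.036 across the 17 arrays.

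None of the 10 genes was called for PCN in Pxr-/- mice or for genotype in CONT mice. The first compares no array of the contrast that chose Sh2d7. The second shares the WT CONT arrays with that contrast, so for Sh2d7 it is not free of the choice. For PCN in Pxr-/- mice 0.00517% of all probes were called (2 of 38703) and 0 of 10 tuft genes were, of which 7 were lower and 3 higher with PCN. Their median log2 difference was -0.27, against 0.0036 over all genes tested. Avil differed by -0.42 ± 0.26, Alox5 by -0.42 ± 0.21, Trpm5 by -0.38 ± 0.28, Sh2d6 by -0.34 ± 0.38 and Gfi1b by -0.25 ± 0.17 (log2, standard error), with adjusted p from limma of at least 0.712. These differences leaned on Pxr-/- PCN replicate 3, without which they were -0.20, -0.28, -0.15, -0.01 and -0.14. Sh2d7 differed by -0.15 ± 0.28 (limma, adjusted p = 0.956). At an unadjusted p under 0.05, 7.35% of probes passed, and 1 of 10 tuft genes, Il25 (limma, unadjusted p = 0.012 and adjusted p = 0.551). Il25 was well above the background on 0 of the Pxr-/- PCN arrays and on only 2 of the 5 Pxr-/- CONT arrays. Its mean log2 signals were 5.26 and 5.55. No fold change is read from them, since both lie near the background and the difference did not pass the test.

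The genotype comparison in CONT mice had 0% of probes and 0 of 10 tuft genes called. At an unadjusted p under 0.05, 12.7% of probes passed, and again 0 of 10 tuft genes. The direction was upward in Pxr-/- for 8 of 10. Sh2d6 was 0.63 ± 0.38 higher (limma, adjusted p = 0.498), Avil 0.49 ± 0.26 (limma, unadjusted p = 0.0732 and adjusted p = 0.435), Trpm5 0.42 ± 0.28 and Alox5 0.38 ± 0.21. Sh2d7 differed by 0.02 ± 0.28 and Pou2f3, which was not well above the background in Pxr-/- CONT, was measured at means of 5.50 in WT CONT and 5.44 in Pxr-/- CONT. Without the near-identical arrays 0 of 10 genes were called in either comparison, beside 0.0517% and 0% of all probes.

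For the difference between the PCN effects of both genotypes, 0% of probes and 0 of 10 tuft genes were called over 17 arrays, and the lowest adjusted p among the 9 companions was 0.848 (limma). At an unadjusted p under 0.05, 5.38% of probes passed and 1 companion, Alox5 (-0.77, limma, unadjusted p = 0.0267). Over 13 arrays 0.00258% of probes were called, which is 1 probe, that of Sh2d7 (-1.95 ± 0.17), again the measure by which the gene was chosen. In WT mice the companions differed between PCN and CONT by -0.21 (Hpgds) to 0.34 (Alox5) over 17 arrays, and over 13 arrays 6 of the 10 genes were lower with PCN.

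**Figure D2:**
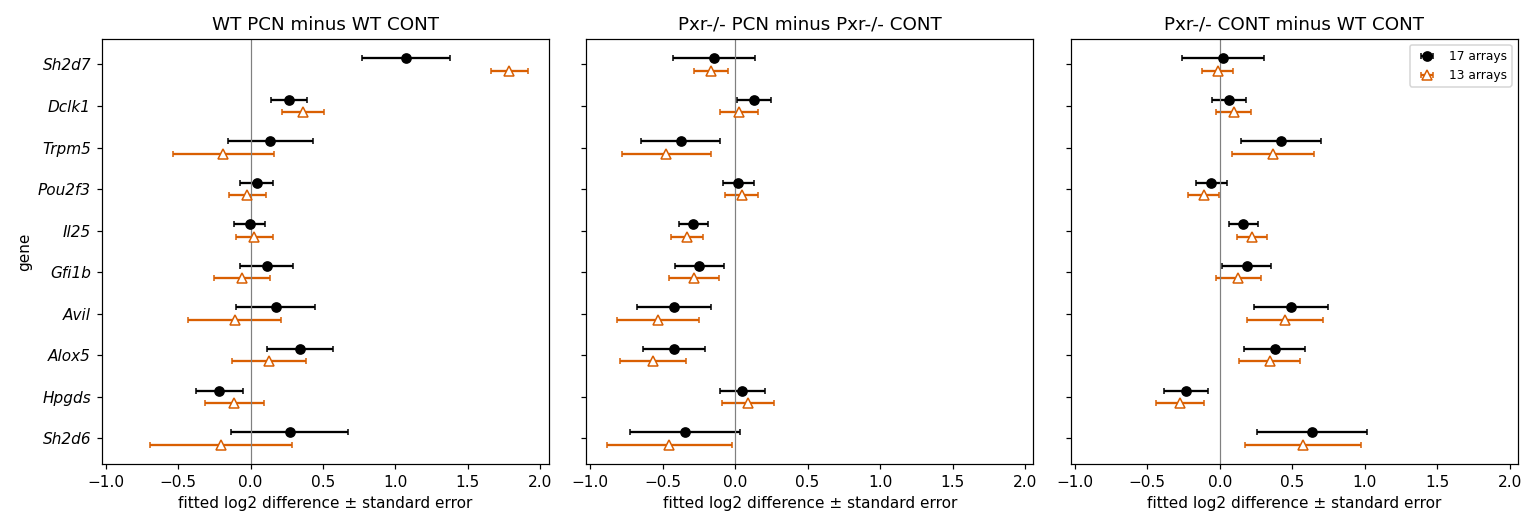
Fitted log2 differences with standard errors (x axis) are plotted for the 10 tuft genes (y axis) in 3 comparisons, over 17 arrays (filled circles) and over the 13 arrays outside the near-identical pairs (open triangles). Sh2d7 in WT mice, at 1.07 and 1.79, stands apart from the other points, and Trpm5, Gfi1b, Avil, Sh2d6, Pou2f3 and Il25 change sign for PCN in WT when the 4 arrays are left out. Of WT PCN, the 13 arrays keep replicates 1 and 2 alone.

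The wash bath divided the WT PCN group unevenly, with 3 arrays in bath 1 and replicate 1 alone in bath 2. Within bath 1 the WT PCN minus WT CONT difference was 0.68 for Trpm5, 0.69 for Avil, 1.05 for Sh2d6, 0.42 for Gfi1b and 0.88 for Alox5. Within bath 2 it was -0.99, -0.86, -1.35, -0.54 and -0.59. The direction of these 5 genes in WT mice thus differed between baths, while that of Sh2d7 did not. Whether this came from the bath or from the single mouse cannot be told apart.

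Across arrays 5 of the companions moved together, though not apart from other genes, which was noticed after the values had been seen. Trpm5, Avil, Sh2d6, Gfi1b and Alox5 had pairwise Pearson r of 0.777 to 0.969 and Spearman rho of 0.556 to 0.90 over 17 arrays. The closest pair was Avil and Sh2d6, and among 25028 other genes Avil was the gene most like Sh2d6 in its pattern. Trpm5 had an r of 0.965 with Avil and of 0.944 with Sh2d6, which placed it 38th. Gfi1b (r = 0.806) was 568th and Alox5 (r = 0.777) 754th. The genes next after Avil, Tmigd1 (r = 0.968) and Slc12a8 (r = 0.966), are on none of the tuft lists. The r stayed at 0.725 to 0.972 over 13 arrays, at 0.831 to 0.983 within bath 1 (9 arrays), at 0.566 to 0.971 within bath 2 (8 arrays), and at 0.792 to 0.98 for deviations from the group means. Over all genes tested, 14% had an r over 0.5 with Sh2d6 and 0.632% an r over 0.9. These arrays share hybridization and normalization, so the r values are descriptions.

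Other probes of the same genes fell in with this group in part. The second Sh2d6 probe had an r of 0.973 with the first and the second Avil probe an r of 0.812. Of the further Dclk1 probes that were tested, the second had an r of 0.773 to 0.854 with the 5 genes and another one annotated to NM_019978 an r of 0.671 to 0.775. The remaining one, annotated to NM_001111053 like the chosen probe, had an r of -0.008 to 0.335 with them. Hpgds ran the other way, with an r of -0.46 to -0.37 by the chosen probe and of -0.20 to -0.129 by the other. The chosen Dclk1 probe, Il25 and Pou2f3 had r values with the 5 genes of at most 0.40 over 17 arrays. Over 13 arrays the r was 0.536 to 0.633 for Il25, 0.213 to 0.482 for the chosen Dclk1 probe and 0.073 to 0.442 for Pou2f3, so that Il25, near the background, came closer to the group there.

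The low arrays of the group were shared. That is no separate result, since the group was formed from likeness over these same arrays. WT PCN replicate 1, Pxr-/- PCN replicate 3 and WT CONT replicate 3 held the 3 lowest signals of Trpm5, Avil, Sh2d6 and Gfi1b in the same order, and they were among the 4 lowest for Alox5. They came from 3 different groups. Sh2d7 was at 8.07 in the first of them, 6.30 in the second and 6.43 in the third.

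**Figure D3:**
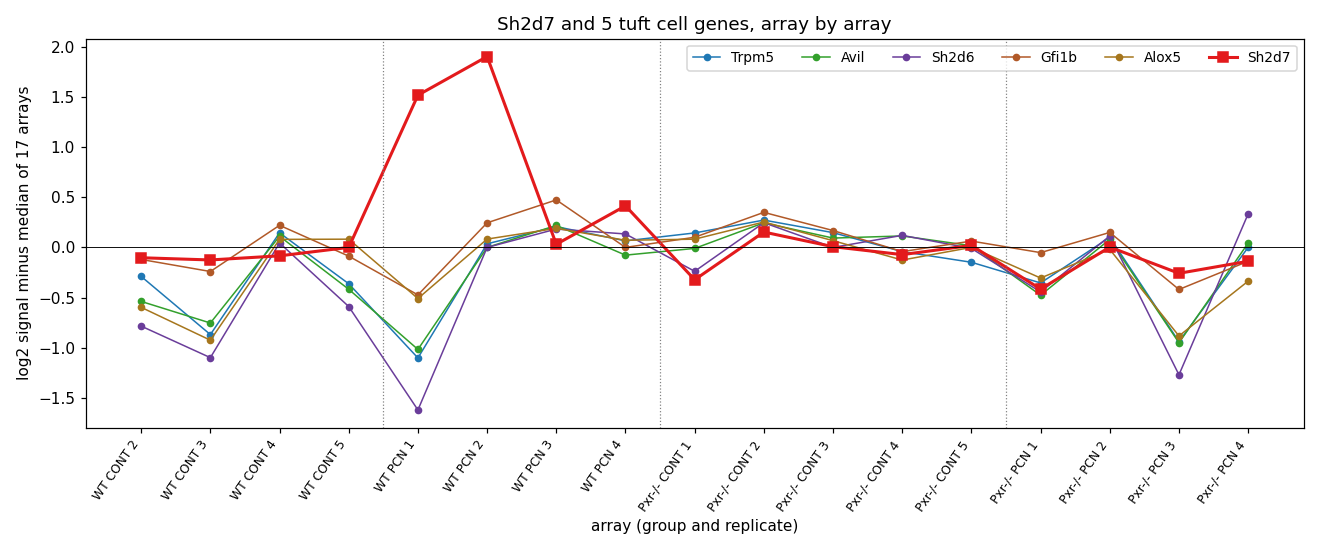
For each of the 17 arrays (x axis, by group and replicate) the log2 signal minus the gene's median over all arrays (y axis) is drawn for Sh2d7 (thick line with squares) and for Trpm5, Avil, Sh2d6, Gfi1b and Alox5. The 5 thin lines fall together in WT CONT replicate 3, WT PCN replicate 1 and Pxr-/- PCN replicate 3, while Sh2d7 rises only in WT PCN replicates 1 and 2, where it was 8.07 and 8.46.

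Sh2d7 itself had an r of -0.152 to 0.118 and a rho of 0.265 to 0.468 with the 5 genes over 17 arrays. The sign of r depended on its high arrays. Without WT PCN replicates 1 and 2, the arrays farthest from its median, r was 0.381 to 0.471 and rho 0.536 to 0.60 over 15 arrays, and 4.65% of all genes had an r over 0.5 with Sh2d7 there. Over the 11 arrays that also leave out the near-identical pairs, r with the 5 genes was 0.226 to 0.362. For deviations from the group means over 17 arrays it was -0.25 to -0.117. For Pou2f3, near the background, r was 0.497 over the 15 arrays but -0.045 over the 11 arrays. Within bath 1 the r of Sh2d7 with the 5 genes was 0.317 to 0.443, and within bath 2 it was -0.758 to -0.473, where WT PCN replicate 1 is the 1 high array. The companion most like Sh2d7 over 17 arrays was Dclk1 by the chosen probe (r = 0.486, and 0.53 over 13 arrays), for which r was 0.05 over 15 arrays.

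**Figure D4:**
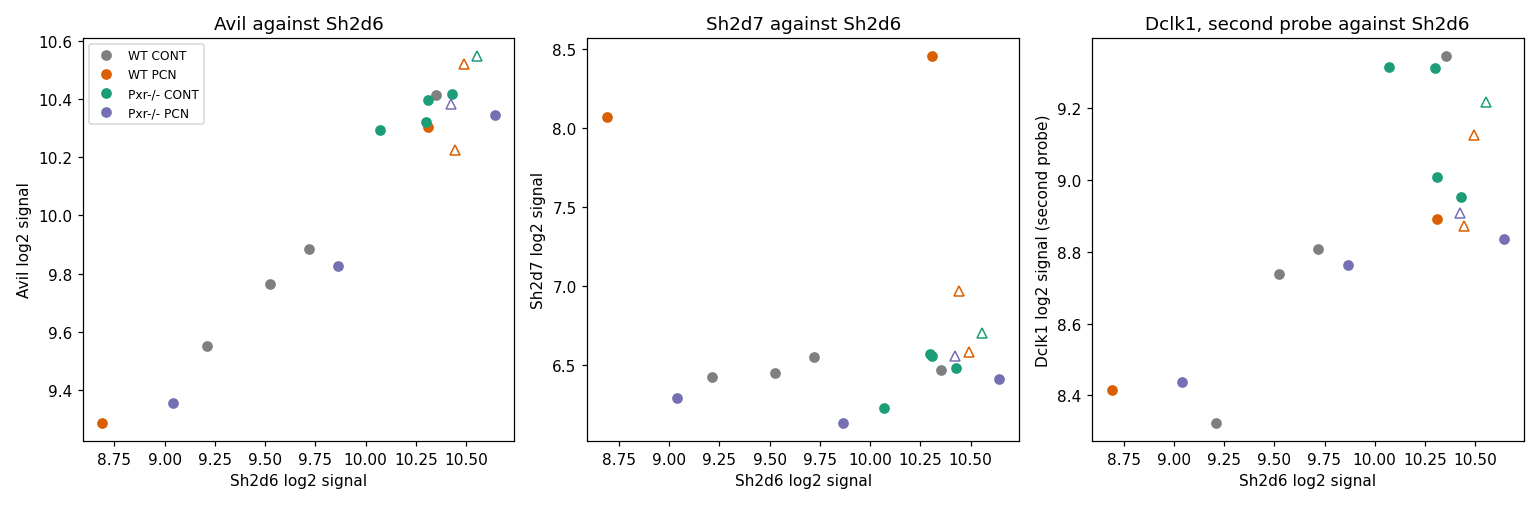
The log2 signals of Avil, Sh2d7 and the second Dclk1 probe (y axes) are plotted against that of Sh2d6 (x axis) for the 17 arrays, coloured by group, with open triangles for the 4 near-identical arrays. Avil rises with Sh2d6 (r = 0.969), whereas Sh2d7 lies at 6.14 to 6.97 over the whole range of Sh2d6 apart from WT PCN replicates 1 and 2.

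**Figure D5:**
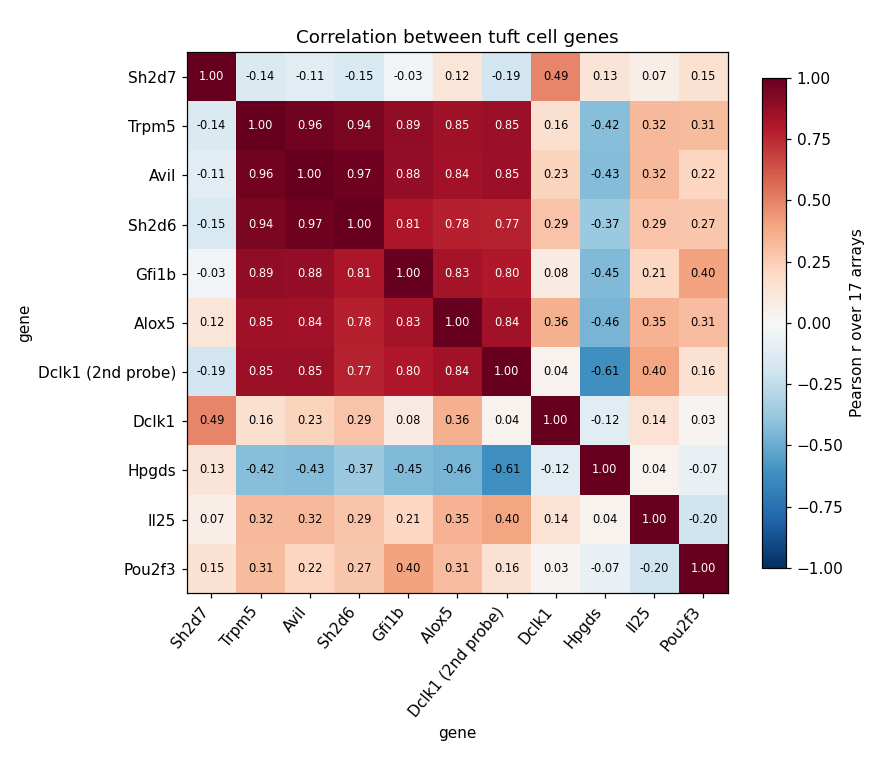
Pearson r over 17 arrays is shown as colour and number for each pair of tuft genes, with Dclk1 by both probes. Trpm5, Avil, Sh2d6, Gfi1b, Alox5 and the second Dclk1 probe form a block with r of 0.77 or more, and Sh2d7 lies outside it.

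The genes whose pattern over 17 arrays was most like that of Sh2d7 were not tuft genes. They were Kcnn2, a calcium-activated potassium channel (r = 0.847), the kinase Pak6 (r = 0.834), the RNA-binding protein Celf3 (r = 0.822), the aldo-keto reductase Akr1b7 (r = 0.819) and the transcript ENSMUST00000103519 (r = 0.812). Akr1b7 had log2 signals of 10.72, 10.28, 8.16 and 7.26 in WT PCN, against 8.37 to 8.92 in WT CONT. It was thus high in the same WT PCN arrays as Sh2d7. Over the 15 arrays without these, the r of the 5 genes with Sh2d7 was -0.12 to 0.21, so that the likeness rested on them. Over 13 arrays Akr1b7 was the gene most like Sh2d7 (r = 0.926).

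Further tuft genes were taken from lists of transcription factors, chemosensory signalling, lipid mediator and acetylcholine synthesis, adaptors and kinases, and surface and structural proteins. Of these 39 genes, 0 were called in any of the comparisons over 17 arrays, and since only 0% to 0.00517% of all probes were, the count says nothing particular about tuft genes. Their median log2 difference was 0.03 for PCN in WT (20 higher), -0.13 for PCN in Pxr-/- (11 higher) and 0.07 for genotype in CONT (26 higher), while the median over all genes tested was 0.0045, 0.0036 and 0.0099. With Sh2d6, 19 of the 39 had an r over 0.5, against 14% of all genes. The highest were the kinase Matk (0.943) and the surface protein Cd24a (0.94), and Chat, which makes acetylcholine, had 0.873, Siglecf 0.862 and the regulator of G-protein signalling Rgs13 0.843. Others on the lists ran against Sh2d6, among them Lrmp (-0.875), Itpr3 (-0.715) and Vav1 (-0.686).

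Of the type 2 circuit, which tuft cells drive through Il25, 11 of 13 listed genes were tested and 0 were called, again beside 0% to 0.00517% of all probes. The mean log2 signal of the 11 genes was 9.07 to 9.53 in WT CONT, 9.68 to 10.19 in WT PCN, 9.30 to 9.85 in Pxr-/- CONT and 9.45 to 9.87 in Pxr-/- PCN. The WT groups did not overlap in this mean, and WT PCN replicate 2 was the highest array. How often other genes or lists kept the WT groups apart was not counted, so nothing is read from this. The median difference of the 11 genes for PCN in WT was 0.22 (9 higher), against 0.0045 over all genes tested. The largest were those of Retnlb and Il33, given below. Il5 and Il13 did not pass the filter on dim probes. The alarmin Il33 differed by 1.34 ± 0.38 for PCN in WT (limma, adjusted p = 0.956) and by 1.63 ± 0.35 for PCN in Pxr-/- (limma, adjusted p = 0.248). Retnlb, a goblet cell product that type 2 cytokines induce, differed by 3.62 ± 1.02 between the CONT groups (limma, adjusted p = 0.24). For PCN in WT it differed by 2.63 ± 1.09 (limma, adjusted p = 0.956) and for PCN in Pxr-/- by -0.88 ± 1.02. Arg1 differed by 2.71 ± 0.94 for PCN in Pxr-/-, 0.84 ± 1.00 for PCN in WT and -2.01 ± 0.94 for genotype. In the same order Areg was at -1.02, 0.25 and 0.64, and Il1rl1 at -0.38, 0.85 and 1.05. For PCN in Pxr-/- 5 genes were higher and 6 lower, and for genotype 6 were higher and 5 lower.

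Markers of position along the colon and of other cells moved with the group of 5 genes. The mean signal of 4 distal Hox genes had an r of -0.821 with Sh2d6 over 17 arrays, with Hoxd12 at -0.923, Hoxd13 at -0.893, Hoxb13 at -0.597 and Hoxa13 at -0.178. It was 11.32 in WT PCN replicate 1, 11.36 in Pxr-/- PCN replicate 3 and 10.94 in WT CONT replicate 3, the 3 arrays low in tuft genes, and 8.89 in WT PCN replicate 2. By group it ranged from 8.79 to 10.94 in WT CONT, 8.87 to 11.32 in WT PCN, 8.38 to 10.45 in Pxr-/- CONT and 6.54 to 11.36 in Pxr-/- PCN. Its part in the result was not tested. The r of these Hox genes with Sh2d7 was 0.038.

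The mean of 6 goblet cell genes had an r of 0.813 with Sh2d6, with Spdef at 0.933, Agr2 at 0.897 and Muc2 at 0.868, but Tff3 at -0.657 and Zg16 at -0.59. It ranged from 16.75 to 17.27 in WT CONT, 16.67 to 17.35 in WT PCN, 17.22 to 17.36 in Pxr-/- CONT and 16.95 to 17.33 in Pxr-/- PCN. The lists of B cells (-0.616), macrophages (-0.582) and liver (-0.464) ran against Sh2d6 with all of their tested genes. The mean of the enteric neuron list had an r of 0.43 with Sh2d6. It was -0.597 for mast cells, 0.481 for colonocytes and 0.416 for enteroendocrine cells, but the genes of these lists went both ways. Among mast cell genes Kit had an r of 0.901 and Cma1 of -0.861, among colonocyte genes Cdx2 of 0.937 and Car4 of -0.876, and among enteroendocrine genes Cck of 0.872 and Pyy of -0.876. The pancreas list had no clear relation to Sh2d6, with an r of 0.161 over 17 arrays and of -0.041 over 13. Mast cells and macrophages also carry Alox5 and Hpgds. The r of the mast cell list was -0.421 with Alox5 and 0.397 with Hpgds, and that of the megakaryocyte and erythroid list, whose cells carry Gfi1b, was -0.33 with Gfi1b. The parts of these cells in the results were not tested.

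Promoter windows around the gene start (RefSeq, GRCm38.p6) were at hand for 8 of the 10 genes, in 9 windows. The octamer ATGCAAAT, the letters that POU factors of the Pou2f family bind, was searched on both strands. It stood in 1.74% of all 32851 windows and, among the tuft genes, in that of Hpgds. The DR-4 repeat of the hexamer AGGTCA, a form of element that PXR binds, stood in 0.0152% of all windows and in 0 of the 9.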

How the data were processed

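Cy3-labelled colon RNA was hybridized to 1-colour Agilent SurePrint arrays, and the authors deposited the scanner output (Agilent Feature Extraction 10.10.1.1), in which the median intensity of each spot is not normalized between arrays. A second deposited table holds log2 values of 36695 probes, normalized and corrected for the wash bath per the methods. Here the median intensity of 59305 spots was taken as log2 and quantile-normalized in place of the methods' CrossNorm, and spots were averaged to 56605 probes. Those flagged as well above background on 4 or more arrays (38703) were tested with limma 3.58.1 in R 4.3.3, with the 4 groups and the wash bath in the model and Benjamini-Hochberg adjustment over all probes. A call needed an FDR up to 0.05 and a change beyond 1.5-fold. The fit was tested on simulated data. Gene names followed RefSeq accessions for 32994 probes, 1535 of which changed name. Replicates are mice by the labels, and their number limits the precision. Alternatives were the deposited log2 values, the scanner's corrected signal, normexp with an offset of 50, the slide or replicate number as a block, the mean over probes and arrays left out. Genes most like Sh2d7 were named by the highest Pearson r over 17 arrays. The members and lists were chosen with earlier results of these data known.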

Additional observations from a re-analysis of the deposited data

Results flagged for a closer look

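Of 64 groups of values examined for the 10 tuft genes, Nr1i2 and the genes named for their likeness to Sh2d7, 8 held an array far from the others of its group by Dixon's criterion, which chance reaches in about 1 in 20 groups. WT PCN replicate 1 was such an array for Trpm5 (6.92, the nearest other array at 8.06), Alox5 (9.12, nearest 9.70) and Sh2d6 (8.69, nearest 10.31). These 3 genes vary together, so they are not independent cases. Pak6 was at 7.12 in WT CONT replicate 3 and at 6.81 in Pxr-/- PCN replicate 2. Celf3 was at 8.81 in Pxr-/- CONT replicate 4 and at 7.91 in Pxr-/- PCN replicate 1. The transcript ENSMUST00000103519 was at 4.6 in Pxr-/- PCN replicate 3. Sh2d7 was not among them, since WT PCN held 2 high arrays rather than 1.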

How the results depend on the processing

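Leaving out the 4 near-identical arrays raised the number of tuft genes called for PCN in WT from 0 to 1 and for the interaction from 0 to 1, in both cases Sh2d7. Of all probes, the share called rose from 0% to 0.0491% and from 0% to 0.00258%. Nothing is read from these counts, since Sh2d7 was chosen for this contrast and only replicates 1 and 2 of WT PCN remained. Its difference in WT was 1.07 with all arrays, 1.42 with the scanner's corrected signal, 0.90 with normexp, 1.07 with the deposited values, and 0.76 without WT PCN replicate 2 to 1.36 without WT PCN replicate 3. Small differences that never passed the test changed sign, and the cause was not tested. With the slide as a fixed block Hpgds was -0.03 for PCN in Pxr-/- and Dclk1 -0.11 for genotype. With the mean over probes Dclk1 was -0.09 and Hpgds -0.02 for PCN in Pxr-/-. Without the 4 arrays Sh2d7 was -0.01 for genotype. With each array left out in turn, the genotype difference ran from -0.02 to 0.13 for Dclk1, -0.11 to 0.01 for Pou2f3 and -0.01 to 0.10 for Sh2d7, and the PCN difference in Pxr-/- from -0.05 to 0.08 for Pou2f3 and -0.04 to 0.11 for Hpgds. For PCN in WT, leaving out WT PCN replicate 1 moved Sh2d6 from 0.27 to 0.89, Trpm5 from 0.14 to 0.56, Gfi1b from 0.11 to 0.36, Avil from 0.17 to 0.55 and Alox5 from 0.34 to 0.63. For PCN in Pxr-/-, leaving out 1 array gave -0.60 to -0.01 for Sh2d6, -0.51 to -0.15 for Trpm5, -0.57 to -0.20 for Avil, -0.58 to -0.28 for Alox5 and -0.33 to -0.14 for Gfi1b, each nearest to 0 without Pxr-/- PCN replicate 3. For genotype in CONT, Trpm5 ran from 0.23 to 0.62, Alox5 from 0.21 to 0.51 and Gfi1b from 0.12 to 0.30, each lowest without WT CONT replicate 3.

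Replicate numbers were not treated as pairs in the main fit. The 22 pairs of arrays with the same number had an r of -0.334 to 0.493 between their deviations from the group means (median 0.10), and 11 were over 0.1. The 86 pairs with different numbers had an r of -0.486 to 0.618 (median -0.048), and 30 were over 0.1. The ranges overlapped with a higher median for the same number, and whether the numbers pair the mice was not tested. With the replicate number as a block 0 tuft genes were called in any comparison, and the Sh2d7 difference for PCN in WT was 1.09. Signals of Il25 and Pou2f3 lie near the background, which compresses differences between groups, and what size could be detected there was not tested.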
